A study of Mus musculus with 32 samples.

Results

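The departure of a combined treatment from additivity was measured in mouse fetal liver hematopoietic progenitor cells of the line hi-77-/-, genotype Gata2 -77-/-. These cells have lost an enhancer upstream of Gata2 and are called mutant here. They received interferon gamma (IFNg) at 1 ng/ml together with Pam3CSK4 at 100 ng/ml, IFNg alone, Pam3CSK4 alone, or vehicle, each for 4 h. The 16 mutant libraries of the 32 in the study were used, 4 in each of the 4 treatment groups, and the 16 libraries of the line hi-77+/+, called wild-type, which had the same treatments, served for comparison. Cells of both genotypes were immortalised with ER-HOXB8, a hormone-dependent HOXB8 fusion that holds myeloid progenitors in division, and were grown with b-estradiol, SCF-conditioned medium and G418. Each genotype was a single line, so clone and genotype cannot be told apart. Whether replicate libraries were separate cultures is not stated, and the p-values speak only of the spread among the 4 libraries sequenced per group, which may be technical.

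For each gene the departure is the log2 level with both agents, minus that with IFNg, minus that with Pam3CSK4, plus that with vehicle. A value of 0 means that the fold with both agents equals the product of the single folds. A positive departure means a level above that product, and a negative one a level below it. Levels are CPM, counts divided by the TMM-scaled library size, given as mean ± SD with n = 4, and always in the order both agents, IFNg, Pam3CSK4 and vehicle. Coordinates refer to mm10.

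IFNg binds a receptor made of IFNGR1 and IFNGR2 and signals through JAK kinases to factors that bind GAS elements and induce IRF1, which in turn binds the ISRE elements of many interferon-stimulated genes. Pam3CSK4 is a synthetic lipopeptide that activates TLR2 paired with TLR1, and through MyD88 brings NF-kB and MAP kinases into action; NF-kB binds kappa B sites. In macrophages these pathways are known to act together on inflammatory genes. GATA2 is a transcription factor of hematopoietic stem and progenitor cells.

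Bases upstream of 5 genes with a called departure are shown, since they hold different sets of matches to fixed letters for these elements. Irf1, Tlr2 and Acod1 lay above additivity and Gbp3 and Icam1 below it. The windows searched were the 250 bases before each gene's start in RefSeq (GRCm38.p6, the build mm10). GENCODE, which gave the gene coordinates below, places the start 159 bases further upstream for Tlr2, 35 for Acod1 and 18 for Gbp3, 45 bases further downstream for Icam1, and at the same base for Irf1. Only the part of each window before both starts is printed. The sequences are from RefSeq, 5′ to 3′ on the strand of the gene, and capitals mark matches to GAS (TTCNNNGAA), ISRE or a kappa B consensus, each searched on both strands. They span chr11:53769764-53770013 (plus strand) for Irf1, chr3:83841768-83841858 (minus) for Tlr2, chr3:142559794-142560025 (plus) for Gbp3, chr9:21015690-21015939 (plus) for Icam1 and chr14:103046762-103046976 (plus) for Acod1.
Irf1: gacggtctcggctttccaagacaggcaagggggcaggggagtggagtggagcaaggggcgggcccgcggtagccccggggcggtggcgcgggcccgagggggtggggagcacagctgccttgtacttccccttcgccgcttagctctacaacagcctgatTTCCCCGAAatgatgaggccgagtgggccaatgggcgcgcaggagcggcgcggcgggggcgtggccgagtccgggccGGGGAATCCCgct
Tlr2: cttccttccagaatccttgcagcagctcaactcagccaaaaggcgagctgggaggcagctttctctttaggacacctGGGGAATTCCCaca
Gbp3: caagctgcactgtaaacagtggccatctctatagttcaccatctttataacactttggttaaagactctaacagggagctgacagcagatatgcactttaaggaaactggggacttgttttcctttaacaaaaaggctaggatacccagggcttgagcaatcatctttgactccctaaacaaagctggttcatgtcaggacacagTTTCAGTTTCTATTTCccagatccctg
Icam1: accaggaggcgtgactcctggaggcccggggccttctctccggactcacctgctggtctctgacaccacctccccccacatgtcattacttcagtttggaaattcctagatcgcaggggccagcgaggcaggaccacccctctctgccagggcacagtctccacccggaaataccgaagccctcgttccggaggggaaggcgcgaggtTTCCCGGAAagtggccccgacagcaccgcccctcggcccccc
Acod1: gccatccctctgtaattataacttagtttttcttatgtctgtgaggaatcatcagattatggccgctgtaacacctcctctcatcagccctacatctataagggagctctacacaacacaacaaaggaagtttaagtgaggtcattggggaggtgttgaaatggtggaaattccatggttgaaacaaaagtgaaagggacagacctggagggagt
Counted back from the GENCODE start, Irf1 held a GAS match beginning at 90 bases and a kappa B match at 13 bases. Tlr2 held kappa B matches at 14 and 13 bases that overlap, Gbp3 held ISRE matches at 27 and 21 bases that also overlap, and Icam1 held a GAS match at 87 bases. The Acod1 window held no match to these letters. Icam1 and Acod1 both hold tggaaattcc, which differs from the kappa B letters only in its first base and so is not marked. Of the 206 genes called above additivity, 160 had such a window, and 14.4% of these held at least 1 of the motifs (GAS 6.25%, ISRE 4.38%, kappa B 5.62%). Of the 70 called below, 56 had a window and 23.2% held a motif (GAS 12.5%, ISRE 7.14%, kappa B 3.57%). Among all 9921 tested genes with a window the shares were 12% for any motif, 5.86% for GAS, 2.76% for ISRE and 4.26% for kappa B. These matches describe the sequence and show no binding.

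The mutant libraries held 48.27 to 71.42 M expected counts, with 17970 to 20978 genes detected. Gata2 (chromosome 6) had 6.01 to 8.42 CPM in the mutant libraries and 35.1 to 54.7 CPM in the wild-type libraries, and its departure in mutant cells was 0.06 ± 0.15 (edgeR, adjusted p = 0.926). The 8 progenitor markers examined were present in all 16 mutant libraries, among them Kit at 214 to 309 CPM, Cd34 at 1594 to 1842 CPM, Flt3 at 280 to 380 CPM and Mpo at 1558 to 1943 CPM. The share of counts in mitochondrial and small structural RNA ran from 15.4 to 30.2%, and the combined libraries split on it, with 18.9 and 18.8% in libraries 1 and 2 and 27.8 and 26.3% in libraries 3 and 4. The group means of this share were 23, 21.1, 27.3 and 25.7%, and its part in the departures was examined only as a covariate. Fits without either pair of combined libraries were added, and calls of named genes lost there are given with the gene. In bulk RNA, fewer cells of a type and less RNA per cell cannot be told apart.

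Few genes departed from additivity by the test. Of 14869 genes tested, 276 were called (1.86%, edgeR quasi-likelihood test, adjusted p under 0.05), 206 above additivity (1.39%) and 70 below it (0.471%). The departures were small: their median was 0.31 among the genes called above and -0.32 among those called below, against -0.000345 over all genes, and 165 of the 206 and 46 of the 70 were under 0.5 in size. A departure of 2-fold or more was reached by 9 genes above and 10 below. The genes called above included the itaconate enzyme Acod1, the transcription factors Batf2 and Irf1, the receptor genes Tlr2 and Ifngr2, and the cytokine genes Il6 and Il15. Those called below included Icosl, Cd40, Cd69 and Icam1 from a list of costimulation and adhesion genes, the tubulin gene Tubb3, and Gbp3, Slfn2 and Tnf. Of the 276 calls, 165 (129 above and 36 below) were made in each of the 16 fits that left out 1 mutant library. The count called below was 112 without combined library 2, 244 without combined libraries 1 and 2, and 38 without combined libraries 3 and 4, and the count of all calls was 506 without combined libraries 1 and 2.

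**Figure D1:**
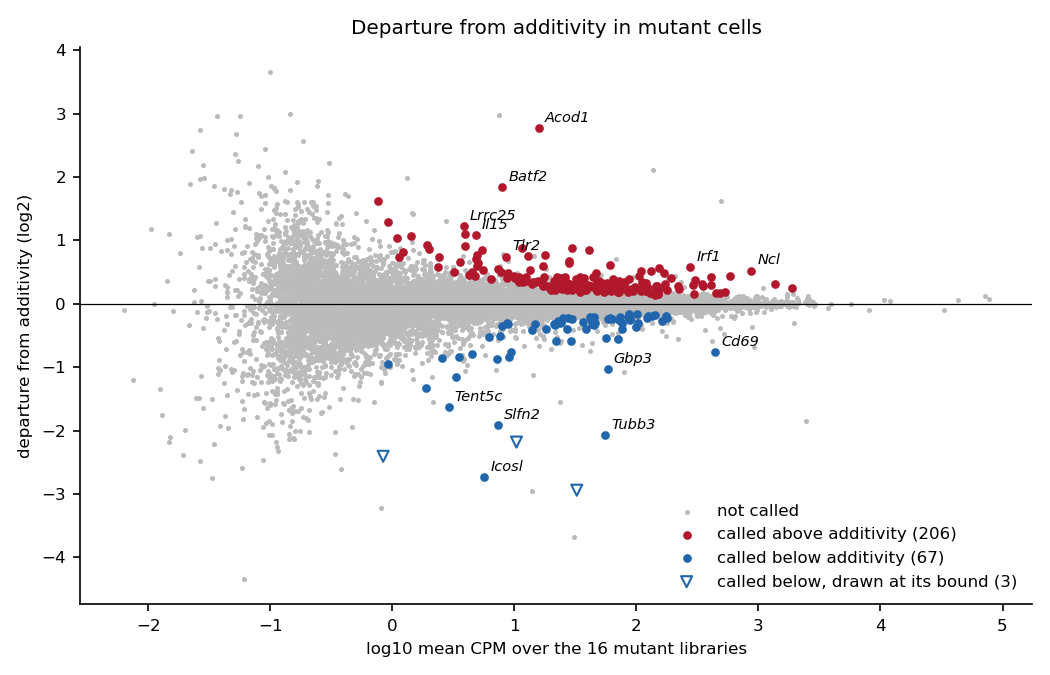
Departure from additivity on the log2 scale against log10 mean CPM over the 16 mutant libraries, for 14710 genes; 144 uncalled genes with an SE of 1.5 or more and 15 genes with no mutant counts are not drawn. Of the called genes 206 lie above 0 in red and 67 below it in blue, and the 3 genes with no vehicle counts are open triangles at the upper bound of their departure. Acod1 is the highest and Icosl the lowest of the genes named in the plot.

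A departure above additivity did not by itself mean a high level with both agents. Among the 206 genes called above, the combined mean was the highest of the 4 groups for 109, but for 126 both single agents gave a mean below vehicle, and for 81 vehicle was highest. Over all 14869 tested genes these counts were 4060, 5084 and 4656. The departure is made from the same means, so these counts describe the called genes and carry no test. For 47 genes the IFNg mean was above vehicle and the Pam3CSK4 mean below it, and for 16 the reverse held. For 17 both single means were above vehicle. The same 3 counts over all 14869 tested genes were 2338, 2628 and 4777. The 4 combined libraries lay above all 12 others for 62 of the 206, against 692 of all tested genes (4.65%), and below all 12 for 4, against 395 (2.66%).

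The genes called below had another pattern. Both single means were above vehicle for 61 of the 70, vehicle was lowest for 61 and the combined mean was highest for 40, against 4777, 4246 and 4060 of all 14869 genes. These counts too come from the means that make the departure. The 4 combined libraries lay above all 12 others for 31 of the 70, against 692 of all tested genes (4.65%). They lay below all 12 for 2, against 395 (2.66%). On the linear CPM scale the increments rather than the folds are added. There 203 of the 206 genes called above exceeded the sum, whereas 20 of the 70 called below exceeded it and 50 fell short. The excess was over 2 SE for 15 of those 20, and the shortfall was over 2 SE for 42 of those 50. Over all tested genes 7659 exceeded the sum and 7195 fell short, by over 2 SE for 1564 and 825. Where both single means lie on the same side of vehicle, a mean above the product exceeds the sum by arithmetic. Both were below vehicle for 126 of the 206 and above it for 17, so their excess adds no support. These linear values carry no test.

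**Figure D2:**
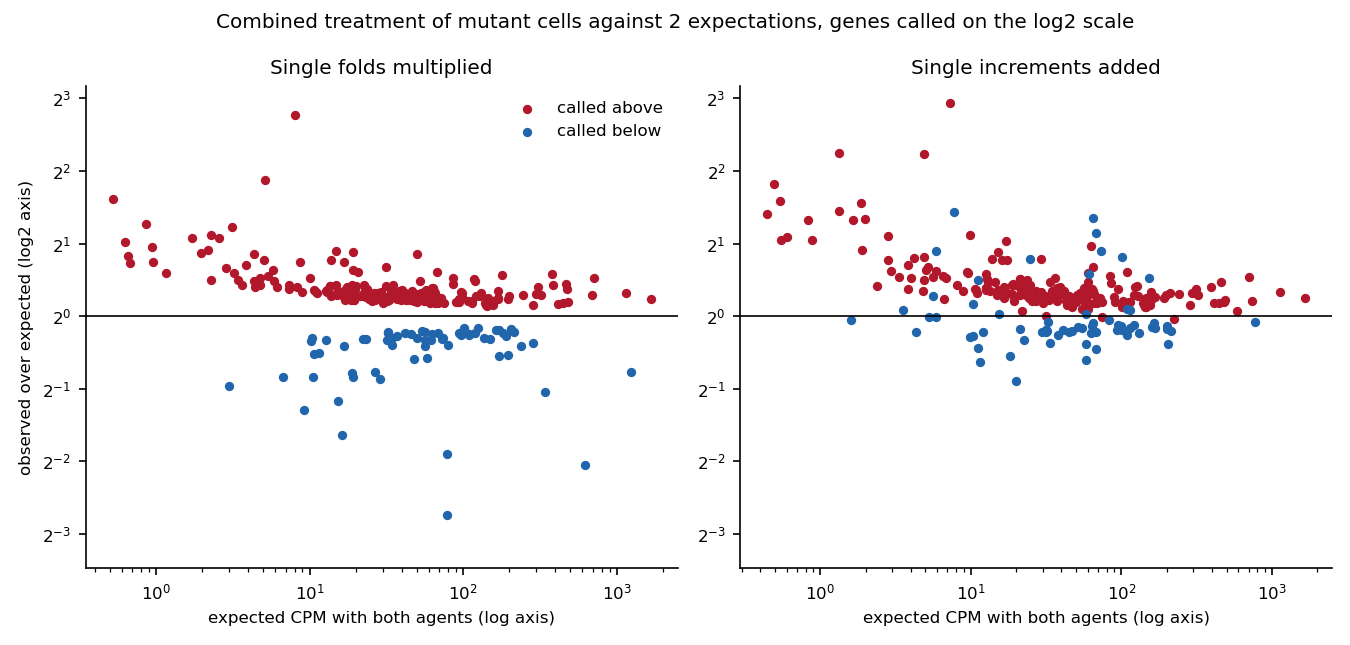
Observed over expected CPM with both agents (log2 axis) against the expected CPM (log axis) for the called genes with vehicle counts, where the expectation is the product of the single folds on the left and the sum of the single increments on the right. Genes called above additivity are red and genes called below are blue; on the right, some blue genes lie above 1, among them Tubb3, Slfn2 and Gbp3.

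Among the receptors of the 2 agents, Tlr2 and Ifngr2 lay above additivity. Tlr2 (chromosome 3, 83836272 to 83841767) had 15.5, 13.1, 15 and 14.4 CPM in the libraries with both agents, 4, 4.5, 4.4 and 4.08 CPM with IFNg, 10.6, 10.1, 10.9 and 9.43 CPM with Pam3CSK4, and 4.98, 4.34, 5.62 and 5.14 CPM with vehicle. All combined libraries were above all others, while IFNg alone overlapped vehicle. Its departure was 0.74 ± 0.14 (edgeR, adjusted p = 0.00185). Ifngr2, the signalling chain of the IFNg receptor (chromosome 16, 91547072 to 91565623), had 39.1, 41.4, 45.9 and 41.8 CPM with both agents, 22.5, 23.2, 23.1 and 22.5 CPM with IFNg, 41.4, 44, 41.4 and 40.3 CPM with Pam3CSK4, and 30.3, 30.3, 30.3 and 30.4 CPM with vehicle. The combined libraries overlapped those with Pam3CSK4 alone, and the IFNg libraries were the lowest. The departure of Ifngr2 was 0.42 ± 0.07 (edgeR, adjusted p = 0.000134).

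The ligand-binding chain Ifngr1 had 57 ± 2.12 CPM with both agents, 75.7 ± 3.33 CPM with IFNg, 75 ± 2.42 CPM with Pam3CSK4 and 105 ± 2.29 CPM with vehicle, and a departure of 0.07 ± 0.06 that was not called (edgeR, adjusted p = 0.714). Its 4 combined libraries lay below all 12 others. The TLR2 partners Tlr1 and Tlr6 had departures of -0.32 ± 0.27 and -0.01 ± 0.14 (edgeR, adjusted p = 0.73 and 0.997), and the TLR coreceptor gene Cd14 one of -0.26 ± 0.15 (edgeR, adjusted p = 0.559). In the list of TLR receptors and MyD88 pathway genes, Tlr2 was the 1 gene of 27 tested that was called above, against 1.39% of all genes. None was called below, and the median was -0.01.

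In the list of interferon regulatory factors, which also held Batf2, the 2 called departures were above additivity. Of these 2 genes only Irf1 is an interferon regulatory factor. Irf1, a transcription factor induced by IFNg (chromosome 11, 53770014 to 53778374), had 579, 577, 563 and 564 CPM with both agents, 479, 489, 492 and 511 CPM with IFNg, 17.7, 18.9, 17.1 and 16.2 CPM with Pam3CSK4, and 21.5 to 24.8 CPM with vehicle. The Pam3CSK4 libraries were the lowest, and the combined libraries the highest, with no overlap of either with another group. The departure was 0.57 ± 0.06 (edgeR, adjusted p = 3.62e-08), and the combined mean exceeded the sum of the single increments by 83 ± 7.94 CPM (SE). Batf2, a bZIP factor that partners IRF1 in macrophages, averaged 18.8 ± 1.07, 12.7 ± 0.94, 0.0763 ± 0.0294 and 0.188 ± 0.061 CPM, with a departure of 1.84 ± 0.40 (edgeR, adjusted p = 0.0071). Its Pam3CSK4 libraries (0.0422 to 0.111 CPM) overlapped its vehicle libraries (0.0974 to 0.225 CPM), so the size of this departure rests in part on very low counts. Irf1 and Batf2 were 2 of 10 listed genes called above, against 1.39% of all genes, with none below (median 0.13). Irf8 had a departure of 0.01 ± 0.07 (edgeR, adjusted p = 0.986) at 212, 192, 19.6 and 17.8 CPM.

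Among 9 SOCS and related feedback genes, Socs3 was called below, against 0.471% of all genes, and none above (median -0.02). Socs3, an inhibitor of cytokine signalling, averaged 42.9, 20.6, 6.55 and 2.38 CPM, with a departure of -0.40 ± 0.11 (edgeR, adjusted p = 0.0362); this call was lost in 8 of the 16 fits without 1 library, with an adjusted p of up to 0.142 without vehicle library 1, and also without combined libraries 1 and 2 (edgeR, adjusted p = 0.126) and with mutant libraries alone in the fit (edgeR, adjusted p = 0.0962). Socs1 had 11.9, 8.87, 0.112 and 0.0738 CPM and a departure of 0.01 ± 0.95, too imprecise at these counts to place on either side.

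Interferon effector genes gave departures on both sides. Of 38 antiviral genes tested, 5 were called above and 1 below (median 0.09), against 1.39% and 0.471% of all genes. Cmpk2, a mitochondrial nucleotide kinase, averaged 90.1 ± 3.48 CPM with both agents, 61 ± 3.3 CPM with IFNg, 5.24 ± 0.53 CPM with Pam3CSK4 and 6.39 ± 0.49 CPM with vehicle, and its departure was 0.85 ± 0.11 (edgeR, adjusted p = 1.55e-05). The antiviral enzyme gene Rsad2 (27.7, 16.3, 1.09 and 1.2 CPM, departure 0.88) and the RNA-binding Ifit2 (6.87, 5.86, 4.32 and 5.32 CPM, departure 0.53) had adjusted p-values of 0.024 and 0.0284 (edgeR). Their calls were lost in 6 and 7 of the 16 fits without 1 library, with adjusted p of up to 0.108 and 0.0854, both without vehicle library 3. Without combined libraries 1 and 2 both were lost (edgeR, adjusted p = 0.0524 and 0.0733), and Rsad2 was lost without 3 and 4 as well (edgeR, adjusted p = 0.0502). With mutant libraries alone in the fit Ifit2 was lost (edgeR, adjusted p = 0.0793). The ubiquitin ligase genes Trim21 and Dtx3l had departures of 0.30 ± 0.07 and 0.24 ± 0.06 (edgeR, adjusted p = 0.0074 and 0.012). The Trim21 call was lost without combined libraries 3 and 4 and the Dtx3l call without 1 and 2 (edgeR, adjusted p = 0.054 and 0.0756).

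The exception among the antiviral genes was Slfn2, a Schlafen family member (chromosome 11, 83065112 to 83070678). It had 20.2, 20, 21.4 and 22.3 CPM with both agents, 4.37, 4.79, 4.62 and 4.55 CPM with IFNg, 2.29, 4.13, 3.84 and 3.39 CPM with Pam3CSK4, and 0.146, 0.278, 0.216 and 0.161 CPM with vehicle. No group overlapped another. The departure was -1.91 ± 0.21 (edgeR, adjusted p = 2.15e-07): the combined mean of 21 CPM lay below the 78.1 CPM that multiplied folds give and above the 7.79 CPM that added increments give.

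The GTPases of the GBP and IRG families, which take part in defence against intracellular microbes, divided in the same way. Of 19 tested, Igtp, Irgm1 and Irgm2 were called above and Gbp3 below (median 0.29), against 1.39% and 0.471% of all genes. The 3 IRG genes reached nearly their combined level with IFNg alone: Igtp averaged 614 CPM with both agents, 588 CPM with IFNg, 4.47 CPM with Pam3CSK4 and 5.53 CPM with vehicle, and its departure was 0.37 ± 0.08 (edgeR, adjusted p = 0.00733). Irgm1 averaged 848, 735, 21.9 and 23.2 CPM, with a departure of 0.29 ± 0.06 (edgeR, adjusted p = 0.00226). Irgm2 averaged 215, 223, 2.9 and 3.83 CPM, so that the combined level did not exceed that with IFNg. Its departure of 0.35 ± 0.09 (edgeR, adjusted p = 0.0336) was lost in 9 of the 16 fits without 1 library, with an adjusted p of up to 0.135 without Pam3CSK4 library 3. It was also lost without combined libraries 1 and 2 and with the replicate number as a block (edgeR, adjusted p = 0.0749 and 0.0644).

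Gbp3, a guanylate-binding protein gene (chromosome 3, 142560026 to 142573209), had 169, 164, 151 and 175 CPM with both agents, 58.4, 54.2, 53.8 and 63.1 CPM with IFNg, 9.13, 8.33, 8.04 and 9.92 CPM with Pam3CSK4, and 1.85, 1.22, 1.63 and 1.28 CPM with vehicle. The groups did not overlap and both single agents gave levels above vehicle. The departure was -1.03 ± 0.13 (edgeR, adjusted p = 9.82e-06), yet the combined mean exceeded the summed increments by 100 ± 5.51 CPM (SE). Genes of the GBP, IRG, Schlafen, Ifi200 and Serpina3 families have close paralogs, and their values depend on how RSEM divided shared reads.

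Of 23 genes of MHC class I presentation, Tap1 and Psmb8 were called above, against 1.39% of all genes, and none below (median 0.11). Tap1, a subunit of the peptide transporter, averaged 265 ± 7.59, 227 ± 12.7, 55.5 ± 2.56 and 70.2 ± 1.54 CPM, with a departure of 0.56 ± 0.06 (edgeR, adjusted p = 5.57e-08). Psmb8, an immunoproteasome subunit, had a departure of 0.16 ± 0.04 (edgeR, adjusted p = 0.0446), lost in 12 of the 16 fits without 1 library with an adjusted p of up to 0.116 without vehicle library 3. It was also lost without combined libraries 3 and 4, with no filter on low counts and with mutant libraries alone in the fit (edgeR, adjusted p = 0.177, 0.291 and 0.0857), and with RLE size factors or a replicate block (edgeR, adjusted p = 0.0504 and 0.0555). None of 9 MHC class II presentation genes was called in either direction (median 0.29).

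**Figure D3:**
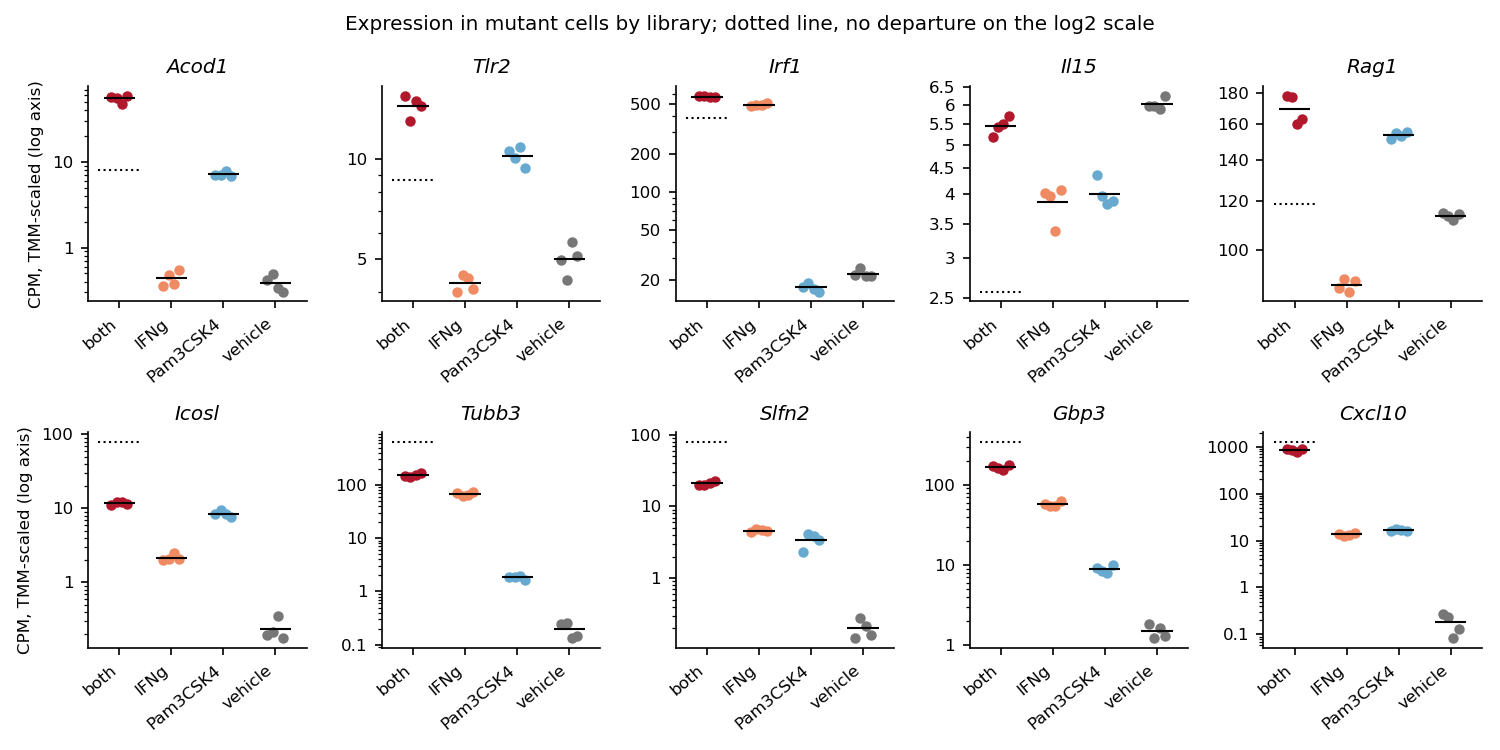
CPM on log axes in each mutant library for 10 genes, with both agents in red, IFNg in orange, Pam3CSK4 in blue and vehicle in grey; bars are group means and the dotted line over the combined group is the level at which the departure is 0. In the upper row (Acod1, Tlr2, Irf1, Il15, Rag1) the combined libraries lie above the dotted line; in the lower row (Icosl, Tubb3, Slfn2, Gbp3, Cxcl10) they lie below it, and Cxcl10 was not called.

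Genes of the NF-kB system were called on both sides, and their counts stand beside the 1.39% of all genes called above and 0.471% called below. Nfkb1, which encodes p105 and p50, was the 1 of 5 subunit genes called above, with 119 ± 4.34, 74.6 ± 1.5, 112 ± 3.08 and 84.3 ± 2.38 CPM and a departure of 0.26 ± 0.04 (edgeR, adjusted p = 0.000356). Of 21 NF-kB inhibitor and ubiquitin feedback genes, Birc3 was called above and Tnfaip2 below (median 0.003226). Birc3, a ubiquitin ligase of the TNF receptor complex, averaged 62, 26, 50.3 and 25.8 CPM, with a departure of 0.29 ± 0.05 (edgeR, adjusted p = 0.00144). Tnfaip2, a gene first known as TNF-induced, averaged 136 ± 3.23, 39.4 ± 0.70, 41.9 ± 0.68 and 8.43 ± 0.74 CPM. Both single agents gave similar means there, and the departure was -0.53 ± 0.07 (edgeR, adjusted p = 1.59e-05).

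The direct NF-kB targets Nfkbia and Tnfaip3 were not called, with departures of 0.31 ± 0.09 and 0.41 ± 0.14 (edgeR, adjusted p = 0.0669 and 0.152). Nfkbia averaged 50.9, 6.36, 57.9 and 8.92 CPM, and Tnfaip3 averaged 38.4, 0.794, 36.9 and 1.02 CPM. For both, the combined libraries overlapped those with Pam3CSK4 alone. None of 11 genes for the decay of inflammatory mRNA was called (median -0.06).

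Acod1, which makes itaconate from cis-aconitate in activated macrophages, had the largest called departure above additivity among genes of at least 5 CPM. This gene (chromosome 14, 103046977 to 103056573) had 58, 56, 47.9 and 59.4 CPM with both agents, 0.351, 0.483, 0.371 and 0.548 CPM with IFNg, 7.13, 7.02, 7.76 and 6.77 CPM with Pam3CSK4, and 0.422, 0.491, 0.333 and 0.305 CPM with vehicle. IFNg alone overlapped vehicle, and Pam3CSK4 alone stood between these and the combined libraries. The departure was 2.77 ± 0.23 (edgeR, adjusted p = 8.08e-10), a combined level 6.82 times the product of the single folds, and 48.1 ± 2.58 CPM (SE) above the summed increments.

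Of the 13 tested enzymes and transporters of itaconate, nitric oxide, tryptophan, arginine, prostaglandin and histamine metabolism, 3 were called above and 1 below (median 0.15). The shares over all genes were 1.39% and 0.471%. Ptgs2, the inducible cyclooxygenase, averaged 123 ± 8.74, 52.6 ± 3.3, 22.6 ± 1.14 and 12.1 ± 0.65 CPM, with a departure of 0.33 ± 0.08 (edgeR, adjusted p = 0.0148). Hdc, which makes histamine, averaged 44, 44.8, 42.9 and 51.7 CPM, with a departure of 0.24 ± 0.05 (edgeR, adjusted p = 0.00209); here each agent alone and both together gave means below vehicle by similar amounts. Slc7a11, the cystine and glutamate antiporter, averaged 58.4, 37.9, 54.7 and 28.5 CPM, with a departure of -0.31 ± 0.07 (edgeR, adjusted p = 0.0111). Nos2, the inducible nitric oxide synthase, stood at 0.599 CPM with both agents and 0.53 CPM with Pam3CSK4 and had no counts with IFNg or vehicle, so no departure could be read from it. Without combined libraries 1 and 2 the Ptgs2 call was lost (edgeR, adjusted p = 0.0926), and without 3 and 4 that of Slc7a11 was lost (edgeR, adjusted p = 0.144); with mutant libraries alone in the fit Slc7a11 was lost too (edgeR, adjusted p = 0.0762).

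Of 22 cytokine and cytokine receptor genes, Il6 and Il15 were called above and Tnf below (median 0.13), against 1.39% and 0.471% of all genes. Il6, an inflammatory cytokine (chromosome 5, 30013114 to 30019981), had 44.9, 46.6, 53.8 and 56.8 CPM with both agents, 23.3, 23.3, 24.1 and 18.3 CPM with IFNg, 20, 22.9, 25.3 and 26 CPM with Pam3CSK4, and 19.4, 16, 15.2 and 15.8 CPM with vehicle. The single agents overlapped each other, and all combined libraries were above them. The departure was 0.68 ± 0.14 (edgeR, adjusted p = 0.00552), and the call was lost without combined libraries 3 and 4 (departure 0.54; edgeR, adjusted p = 0.0656) and with mutant libraries alone in the fit (edgeR, adjusted p = 0.0527).

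Il15, a cytokine that sustains NK and memory T cells (chromosome 8, 82331632 to 82403222), had 5.18, 5.43, 5.49 and 5.69 CPM with both agents, 4.02, 3.97, 3.39 and 4.08 CPM with IFNg, 4.37, 3.96, 3.82 and 3.87 CPM with Pam3CSK4, and 5.97, 5.96, 5.89 and 6.25 CPM with vehicle. Each agent alone gave lower levels than vehicle, while both together gave levels between these and vehicle. That made a departure of 1.08 ± 0.10 (edgeR, adjusted p = 6.34e-09) with no induction over vehicle. Tnf averaged 92.1, 19, 51.3 and 8.96 CPM, with a departure of -0.25 ± 0.07 (edgeR, adjusted p = 0.0421), lost in 10 of the 16 fits without 1 library with an adjusted p of up to 0.12 without vehicle library 4. The Tnf call was also lost without combined libraries 1 and 2 or 3 and 4 (edgeR, adjusted p = 0.0842 and 0.0711), with no filter on low counts and with a replicate block (edgeR, adjusted p = 0.0536 and 0.0679). Il12b had no counts in any library and was not tested. Il1rn, the IL-1 receptor antagonist, averaged 3.64, 0.549, 1.14 and 0.364 CPM. Its departure of 1.07 ± 0.27 (edgeR, adjusted p = 0.0281) was lost in 7 of the 16 fits without 1 library, with an adjusted p of up to 0.091 without vehicle library 4, and without combined libraries 1 and 2 or 3 and 4 (edgeR, adjusted p = 0.0549 and 0.06).

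The CXCR3 ligand genes Cxcl10 and Cxcl9, chemokines that draw activated T cells, stood far above either single agent in the combined libraries but were not called on the log2 scale. Cxcl10 (chromosome 5, 92346638 to 92348889) had 876, 865, 765 and 883 CPM with both agents, 13.5, 12.5, 13.1 and 14.7 CPM with IFNg, 16.1, 17.6, 16.7 and 16 CPM with Pam3CSK4, and 0.276, 0.235, 0.0832 and 0.128 CPM with vehicle. The groups did not overlap. The combined mean exceeded the summed increments by 817 ± 27.5 CPM (SE), whereas multiplied folds give 1239 CPM and the departure was -0.55 ± 0.22 (edgeR, adjusted p = 0.274). Cxcl9 had 18.9, 14.6, 15.1 and 19.7 CPM with both agents, 0.105, 0.021, 0.171 and 0.113 CPM with IFNg, 0.0174 CPM in 1 library and no counts in the other 3 with Pam3CSK4, and no counts with vehicle. Its fitted departure had an SE larger than itself and gives no direction. None of the 3 CXCR3 ligands was called. Of 9 CC and neutrophil chemokine genes, Ccl3 was the 1 called, below additivity, against 0.471% of all genes. It averaged 221 ± 8.75, 22.5 ± 1.1, 142 ± 7.51 and 11.2 ± 0.61 CPM, with a departure of -0.37 ± 0.07 (edgeR, adjusted p = 0.00314).

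Of 15 genes for costimulation and adhesion, 4 were called below and none above, against 0.471% of all genes called below; the median over the list was 0.03. Icosl, the ligand of the T cell receptor ICOS (chromosome 10, 78069302 to 78083913), had 11.1, 12, 12.1 and 11.6 CPM with both agents, 2.04, 2.1, 2.48 and 2.06 CPM with IFNg, 8.33, 9.44, 8.35 and 7.59 CPM with Pam3CSK4, and 0.195, 0.214, 0.349 and 0.177 CPM with vehicle. The groups did not overlap, and both single agents gave levels above vehicle. The departure was -2.73 ± 0.21 (edgeR, adjusted p = 1.89e-10). The combined mean of 11.7 CPM was close to the 10.4 CPM of added increments and below the 78.3 CPM of multiplied folds.

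Cd40, a receptor for T cell help (chromosome 2, 165055627 to 165072948), had 38.6, 34.8, 34.1 and 40.2 CPM with both agents, 0.544, 0.504, 0.385 and 0.642 CPM with IFNg, 3.98, 4.49, 4.12 and 4.21 CPM with Pam3CSK4, and no counts with vehicle. With vehicle set at a floor of 3 counts over the group, 0.013 CPM, the combined mean was at least 4.54-fold lower than the product of the folds, while it exceeded the summed increments by 32.2 ± 1.48 CPM (SE). Icam1, an adhesion molecule for leukocyte integrins (chromosome 9, 21015985 to 21028817), had 172, 184, 180 and 181 CPM with both agents, 69.9, 66.6, 65.5 and 70.2 CPM with IFNg, 44.1, 50.5, 47.8 and 45.7 CPM with Pam3CSK4, and 13.5, 13, 13.5 and 13.9 CPM with vehicle. No group overlapped another, and the departure was -0.40 ± 0.06 (edgeR, adjusted p = 0.000128). Cd69, an early activation antigen, averaged 733 ± 51.3, 229 ± 18.3, 672 ± 52.2 and 124 ± 7.08 CPM. Its combined libraries overlapped those with Pam3CSK4 alone, and its departure was -0.76 ± 0.10 (edgeR, adjusted p = 9.82e-06).

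Tubb3, a beta-tubulin best known from neurons (chromosome 8, 123411424 to 123422015), lay below additivity at a high level. It had 148, 138, 152 and 168 CPM with both agents, 68.8, 61, 63.6 and 72.8 CPM with IFNg, 1.85, 1.9, 1.92 and 1.66 CPM with Pam3CSK4, and 0.243, 0.256, 0.133 and 0.145 CPM with vehicle. The groups did not overlap. The departure was -2.07 ± 0.20 (edgeR, adjusted p = 5.29e-08), with a combined mean of 151 CPM against 627 CPM for multiplied folds and 68.2 CPM for added increments.

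In the next genes called below additivity, each agent alone gave a mean above vehicle. Tent5c, a poly(A) polymerase, averaged 5.27, 2.9, 2.91 and 0.514 CPM, with a departure of -1.63 ± 0.20 (edgeR, adjusted p = 1.43e-06). The stress response gene Nupr1 averaged 5.87, 4.05, 3 and 1.16 CPM, with a departure of -0.84 ± 0.11 (edgeR, adjusted p = 1.1e-05). In both, the combined mean differed from the summed increments by less than its SE. The melanocortin receptor gene Mc1r (-1.15 ± 0.21), the endolysosomal transporter Slc15a3 (-0.87 ± 0.19), the transcription factor Pou2f2 (-0.76 ± 0.17), the inhibitory mast cell receptor Milr1 (-0.58 ± 0.08) and Ifi209 of the Ifi200 family (-0.40 ± 0.09) were called as well (edgeR, adjusted p from 3.08e-05 to 0.0114). Mc1r lies upstream of Tubb3 on the same strand, and whether the departures of these neighbours are independent was not tested. Serpina3f, a serine protease inhibitor gene, averaged 108.3, 21.14 and 0.5117 CPM with both agents, IFNg and Pam3CSK4 and had no counts with vehicle; at the floor of 3 counts over the group its combined mean was at least 7.68-fold lower than the product.

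Dgat2, an enzyme of triglyceride synthesis, was different. It averaged 10.7 ± 0.68 CPM with both agents, 2.67 ± 0.41 CPM with IFNg, 20 ± 1.58 CPM with Pam3CSK4 and 2.79 ± 0.41 CPM with vehicle. The mean with both agents was lower than with Pam3CSK4 alone, and the departure was -0.84 ± 0.14 (edgeR, adjusted p = 0.000187).

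Several genes above additivity belong to no interferon or TLR list. Lrrc25, a leucine-rich repeat gene (chromosome 8, 70616155 to 70621483), had 6.94, 7.45, 7.37 and 7.7 CPM with both agents, 1.35, 1.11, 1.1 and 1.36 CPM with IFNg, 4.97, 4.74, 4.6 and 5.29 CPM with Pam3CSK4, and 1.62, 2.03, 2.06 and 1.98 CPM with vehicle. The IFNg libraries were below vehicle and the combined libraries above all others. The departure was 1.23 ± 0.18 (edgeR, adjusted p = 5.85e-05). Stx11, a syntaxin of granule release, averaged 27.9, 4.83, 14.5 and 4.21 CPM, with a departure of 0.75 ± 0.10 (edgeR, adjusted p = 9.82e-06). Lcp2, the adaptor SLP-76, averaged 8.64, 3.36, 4.62 and 3.05 CPM (departure 0.77 ± 0.12), and Pdp1, a pyruvate dehydrogenase phosphatase, averaged 23.6, 15.5, 15 and 16.8 CPM (departure 0.77 ± 0.13), with adjusted p of 9.56e-05 and 0.000575 (edgeR). Fos, an AP-1 subunit, averaged 1.82, 2.44, 0.977 and 2.54 CPM, with a departure of 0.93 ± 0.22 (edgeR, adjusted p = 0.0138) that was lost without combined libraries 3 and 4 (edgeR, adjusted p = 0.0967).

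Rag1, a part of the recombinase of lymphoid cells, was expressed in the mutant line (chromosome 2, 101638282 to 101649501). It had 178, 177, 160 and 163 CPM with both agents, 86.8, 89.7, 85.5 and 89.1 CPM with IFNg, 151, 155, 153 and 155 CPM with Pam3CSK4, and 115, 114, 112 and 114 CPM with vehicle. IFNg alone gave the lowest levels and the combined libraries the highest, with libraries 1 and 2 above libraries 3 and 4. The departure was 0.52 ± 0.06 (edgeR, adjusted p = 3.1e-07). Its neighbour Rag2 averaged 52.6, 53.7, 70 and 87.2 CPM, so that both agents together and IFNg alone gave like means below vehicle. Its departure of 0.29 ± 0.07 (edgeR, adjusted p = 0.0217) was lost without combined library 1, IFNg library 1, Pam3CSK4 library 3 or vehicle library 1 (edgeR, adjusted p = 0.0609, 0.0529, 0.0533 and 0.0615). Rag1 and Rag2 were 2 of 15 early B lymphoid genes called above, against 1.39% of all genes, with none below (median 0.14). The summed level of this list was 447 to 462 CPM with both agents, 375 to 383 CPM with IFNg, 484 to 500 CPM with Pam3CSK4 and 480 to 496 CPM with vehicle.

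Ncl, the nucleolar protein nucleolin (chromosome 1, 86344719 to 86359400), had 1098, 990.2, 965 and 1024 CPM with both agents, 829, 812, 785 and 845 CPM with IFNg, 746, 770.2, 756 and 781 CPM with Pam3CSK4, and 916, 862, 858 and 884 CPM with vehicle. Each agent alone gave levels below vehicle and both together gave levels above it, without overlap. The departure was 0.52 ± 0.05 (edgeR, adjusted p = 6.34e-09). Ncl was the 1 gene called among 31 ribosome biogenesis genes (median -0.01), against 1.39% of all genes called above. Of 17 glycolysis genes 3 were called above, against 1.39% of all genes, and none below (median 0.05). Gapdh averaged 1976, 1817, 1762 and 1916 CPM, with a departure of 0.24 ± 0.05 (edgeR, adjusted p = 0.00562). Fcer1g, the shared Fc receptor chain, averaged 81.8, 73.7, 74.6 and 83.7 CPM, with a departure of 0.32 ± 0.05 (edgeR, adjusted p = 0.000311). With Hdc it made 2 of 14 mast cell and basophil genes called above, against 1.39% of all genes, and none was called below (median 0.25).

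No gene was called in either direction among 24 cell death, 36 cell cycle, 22 cholesterol, 21 erythroid, 18 neutrophil granule, 21 monocyte, macrophage and dendritic, and 21 progenitor genes, whose medians ran from -0.09 to 0.07. In the remaining lists, beside 1.39% of all genes called above and 0.471% called below, the calls were 1 above and 1 below of 20 IL-1 family and inflammasome genes, 1 above of 25 immediate-early factors, 1 above of 9 NADPH oxidase genes, 2 above of 12 complement and acute-phase genes, 2 below of 15 Ly6 and Ifi200 genes, 1 below of 14 DUSP and Sprouty genes, and none of 8 chemokine receptor genes. Among markers of other cell types, T and NK cell markers summed to 6.91 to 10.1 CPM over the 16 libraries. Of these 20 genes, 5 passed the filter and 5, among them Cd3e, Gzma and Ncr1, were at 0 throughout. Hepatocyte markers summed to 7.37 to 9.78 CPM, where 4 of 17 passed and 5, among them Ttr and Ahsg, were at 0. Stromal and endothelial markers summed to 16.9 to 34.5 CPM, where 9 of 18 passed and 2, among them Col3a1, were at 0. Pdgfrb was the 1 called gene among all these markers, below additivity at -0.41 ± 0.10 (edgeR, adjusted p = 0.0127, or 0.0506 without combined libraries 3 and 4). The part of cells of these types in the departures was not tested. Markers of other blood cells were high. The erythroid list summed to 1578 to 1709 CPM with both agents, 981.6 to 1088 CPM with IFNg, 1842 to 2001 CPM with Pam3CSK4 and 1075 to 1150 CPM with vehicle; its IFNg and vehicle groups overlapped and the others did not. The neutrophil granule list summed to 2092 to 2339, 2151 to 2290, 2230 to 2345 and 2389 to 2501 CPM in the same order. The monocyte, macrophage and dendritic list summed to 1564 to 1713, 1413 to 1574, 1529 to 1724 and 1393 to 1497 CPM, and the mast cell and basophil list to 1226 to 1315, 1156 to 1293, 1251 to 1413 and 1290 to 1381 CPM. The part of these genes' cells in the departures was not tested either.

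The same departure was then set against that of wild-type cells, fitted in the same model. In wild-type cells 88 genes were called (0.592%), 51 above additivity (0.343%) and 37 below it (0.249%). This count was 44 to 1156 when 1 wild-type library was left out: 44 without combined library 1, 51 without combined library 3, 51 without IFNg library 2, 47 and 53 without Pam3CSK4 libraries 1 and 4, and 45, 461, 1156 and 44 without vehicle libraries 1, 2, 3 and 4. The difference of the departures, mutant minus wild-type, was called for 137 genes (0.921%), 110 higher in mutant cells (0.74%) and 27 lower (0.182%). Without 1 library it was called for 50 to 284 genes: for 50 without mutant combined library 1, 69 and 246 without mutant IFNg libraries 1 and 4, 80 and 74 without mutant Pam3CSK4 libraries 3 and 4, and 76 without mutant vehicle library 4. It was called for 69 and 76 without wild-type combined libraries 1 and 2, 88, 78 and 83 without wild-type Pam3CSK4 libraries 1, 3 and 4, and 224, 284 and 76 without wild-type vehicle libraries 2, 3 and 4. Without mutant combined libraries 1 and 2 it was called for 43 genes, and without 3 and 4 for 561. The wild-type departures of the 206 genes called above in mutant cells had a median of -0.02, and those of the 70 called below a median of -0.07. The median over all tested genes was -3.71e-05. These genes were chosen by their mutant departure, which by itself favours smaller departures in the other line, so the medians carry no test.

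Tubb3 differed in direction. Its departure was -2.07 ± 0.20 in mutant cells and 0.67 ± 0.10 in wild-type cells, called in both, and the difference was -2.74 ± 0.23 (edgeR, adjusted p = 4.98e-09). In wild-type cells it averaged 231, 143, 5.01 and 4.94 CPM, so that the vehicle mean was 0.194 CPM in mutant cells and 4.94 CPM in wild-type cells. Cxcl10 had a departure of -0.55 in mutant cells and 1.76 ± 0.20 in wild-type cells, where it averaged 216, 7.37, 3.56 and 0.41 CPM, and the difference was -2.31 ± 0.29 (edgeR, adjusted p = 3.36e-05). Slfn2 (-1.91 and 0.31; difference -2.22 ± 0.27), Tent5c (-1.63 and 0.35; difference -1.98 ± 0.29), Gbp3 (-1.03 and 0.45; difference -1.48 ± 0.25) and Tnfaip2 (-0.53 and 0.15; difference -0.69 ± 0.10) were also lower in mutant cells (edgeR, adjusted p = 8.99e-06, 0.000163, 0.0019 and 0.000183). Trim30a, a TRIM family gene, had a departure of 0.01 in mutant cells and 0.87 ± 0.17 in wild-type cells (difference -0.86 ± 0.19; edgeR, adjusted p = 0.0176).

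Departures higher in mutant cells were found for Il15 (1.08 in mutant and 0.23 in wild-type cells), Ncl (0.52 and 0.03), Irf1 (0.57 and 0.12), Rag1 (0.52 and -0.02), Ifngr2 (0.42 and -0.01) and Fcer1g (0.32 and -0.04), with adjusted p for the difference of 0.000602, 7.66e-05, 0.00289, 0.0131, 0.0202 and 0.0125 (edgeR). Rag1 averaged 2.58, 2.01, 2.94 and 2.27 CPM in wild-type cells, against the 87.8 to 170 CPM of the mutant group means. The differences for Rag1 and Fcer1g were lost without mutant combined libraries 1 and 2 (edgeR, adjusted p = 0.0606 and 0.0892).

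Other departures did not differ beyond the test. Acod1 had a departure of 2.77 in mutant and 3.21 ± 0.21 in wild-type cells, called in both, with a difference of -0.44 ± 0.30 (edgeR, adjusted p = 0.537). Its combined mean was 55.3 CPM in mutant and 8.34 CPM in wild-type cells. The difference was 0.44 ± 0.22 for Tlr2 (edgeR, adjusted p = 0.365), 0.21 ± 0.21 for Il6 (edgeR, adjusted p = 0.693) and -0.06 ± 0.11 for Ptgs2 (edgeR, adjusted p = 0.855). In the MHC class I list 2 of 23 genes were called above in mutant cells, against 1.39% of all genes, and 10 of 23 in wild-type cells, against 0.343%, and the difference was called for 1, lower in mutant cells.

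**Figure D4:**
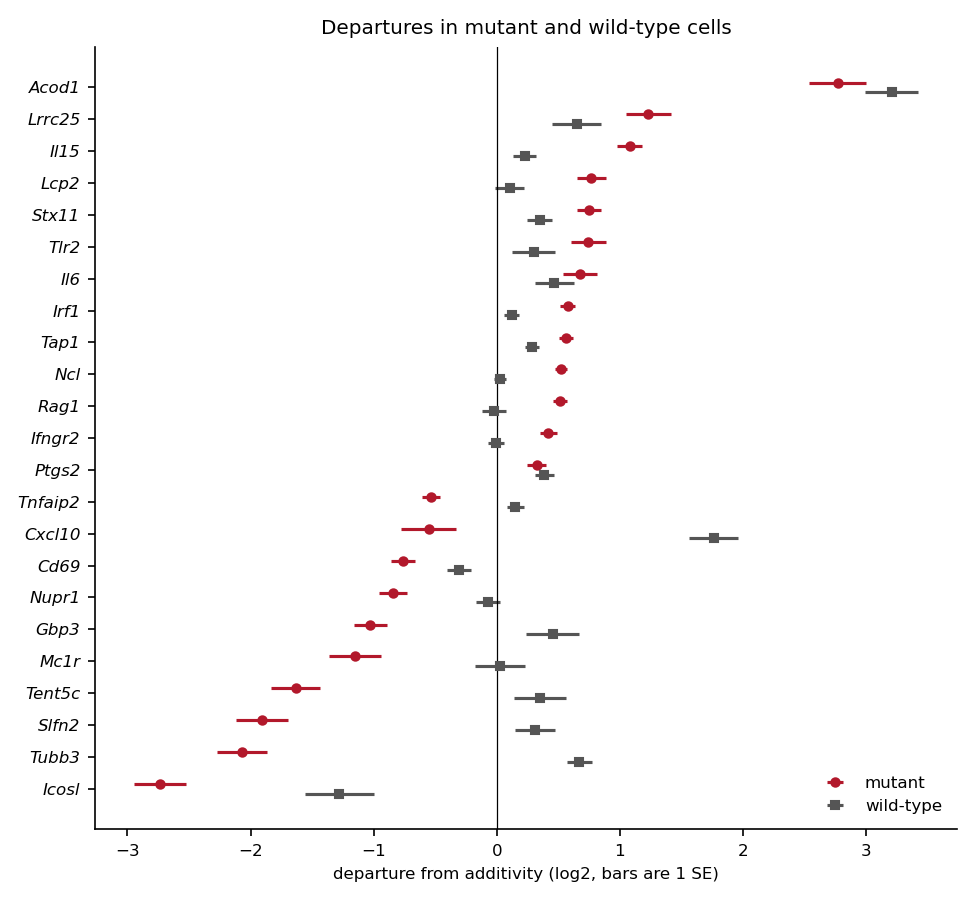
Departure from additivity (log2, bars are 1 SE) of 23 genes in mutant cells (red circles) and wild-type cells (grey squares), ordered by the mutant value. Acod1 lies at 2.77 and 3.21, while Tubb3 lies at -2.07 in mutant and 0.67 in wild-type cells.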

How the data were processed

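RNA was sequenced from 16 mutant and 16 wild-type libraries, 4 in each of 8 groups read from the labels. Per the labels' protocols, libraries were stranded, from total RNA depleted of ribosomal RNA. Per the submitters' processing notes, STAR 2.5.2b, RSEM 1.3.0 and mm10 were used; the annotation release was not given in the sources used here. Deposited by the authors were expected counts per gene, which RSEM estimates by dividing shared reads. Fractions appeared in 11.07% of the non-zero values, and all values were rounded. Of 55487 identifiers, 55394 matched GENCODE vM21, which gave symbols and coordinates.

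Genes were filtered with filterByExpr, which left 14869 and removed 40618. An edgeR quasi-likelihood model with 1 mean per group, TMM scaling and robust dispersions was fitted to all 32 libraries (24 residual degrees of freedom, common biological coefficient of variation 7.22%). The contrasts were the departure in mutant cells, the departure in wild-type cells and their difference, each adjusted by Benjamini-Hochberg over all genes and called under 0.05. Departures on the linear CPM scale carry an SE from the group SDs and no test. A group with no counts was set at a floor of 3 counts over the group, which covers counting error only.

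The 37 gene lists were written from general knowledge, and the lists and named genes were chosen with earlier results of these data known; lists are described by counts and medians only. Named genes were a default set, up to 15 called genes of largest departure each way at 5 CPM or more, up to 3 each way per list at 1 CPM or more, and up to 10 differences between genotypes each way; the text gives a selection, some genes are not reported here, and Cd40 and Serpina3f, which had no vehicle counts, with Trim21 and Dtx3l, stand outside this rule and were chosen after their values were seen. Same-numbered mutant libraries did not regularly deviate together and the labels do not say what the number marks, so no block was used in the main fit. The test was also run on simulated independent counts with known changes in the mutant combined group only. These held no split among the combined libraries, and no result here rests on them. Alternatives were RLE size factors, DESeq2, other filters, each genotype alone, a term for structural RNA share, a replicate block, leaving out each library and, chosen after seeing the data, leaving out 2 of the mutant combined libraries. Tools were R 4.3.3, edgeR 4.0.16, limma 3.58.1, DESeq2 1.42.0, Python with pandas, and matplotlib.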

Additional observations from a re-analysis of the deposited data

Results flagged for a closer look

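In 66 groups of 4 mutant libraries examined for the genes described by library, 5 held a library that stood apart, where chance flags about 1 in 20. Il6 had 18.34 CPM in IFNg library 4, against 23.25 CPM or more in the other 3. Il15 had 3.392 CPM in IFNg library 3, against 3.972 CPM or more, and Icosl had 2.48 CPM in the same library, against 2.101 CPM or less. Cxcl10 had 765.4 CPM in combined library 3, against 865.2 CPM or more. Cxcl9 had 0.01744 CPM in Pam3CSK4 library 3, against 0 in the others.

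The departure differed between mutant and wild-type cells for 19 of the genes named, by the test of the difference itself (edgeR, adjusted p under 0.05). Mutant minus wild-type, it was lower for Tubb3 (-2.74), Cxcl10 (-2.31), Slfn2 (-2.22), Tent5c (-1.98), Gbp3 (-1.48), Icosl (-1.46), Mc1r (-1.17), Trim30a (-0.857), Nupr1 (-0.774), Socs3 (-0.714) and Tnfaip2 (-0.686). It was higher for Rab7b (1.48), Il15 (0.854), Lcp2 (0.665), Rag1 (0.539), Ncl (0.493), Irf1 (0.455), Ifngr2 (0.426) and Fcer1g (0.358). Of these differences 12 were called under every alternative run. Without 1 of the 32 libraries the call was lost in 27 fits for Icosl, 24 for Lcp2, 22 for Mc1r and 13 for Socs3, with adjusted p of up to 0.12, 0.09, 0.0836 and 0.0756 (edgeR). The highest of these came without wild-type vehicle library 1, mutant vehicle library 4, mutant vehicle library 3 and wild-type Pam3CSK4 library 4. Without mutant combined libraries 1 and 2 it was lost for Icosl, Mc1r, Socs3 and Lcp2 (edgeR, adjusted p = 0.105, 0.114, 0.102 and 0.062) and for Rag1 and Fcer1g (edgeR, adjusted p = 0.0606 and 0.0892), and without 3 and 4 for Lcp2 (edgeR, adjusted p = 0.0556). For Trim30a it was lost in 1 fit, without wild-type Pam3CSK4 library 3 (edgeR, adjusted p = 0.0572).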

How the results depend on the processing

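No mutant departure, wild-type departure or difference of a named gene that was called changed sign under any alternative. Of 54 called mutant departures named, 39 were called under every alternative. Uncalled values were compared by their SE. The 276 mutant calls became 422 with structural RNA share as an added term (132 below) and 374 with DESeq2, and all 276 were among both; with RLE size factors there were 265, of which 264 were shared. The mutant count ran from 207 to 339, from 156 to 268 above and from 47 to 112 below, when 1 library was left out. Leaving out combined libraries 1 and 2 gave 506 calls, 244 of them below, and leaving out 3 and 4 gave 38 below. The 88 wild-type calls became 486 with DESeq2, 172 with no filter, 154 with wild-type libraries alone and 42 with that term, and ran from 44 to 1156 without 1 library. The 137 calls of the difference became 344 with DESeq2, 77 with that term, and 43 or 561 without combined libraries 1 and 2 or 3 and 4, and ran from 50 to 284 without 1 library. Of the 65 called mutant departures of 0.5 or more in size, 50 were called in all 16 fits without 1 library. The cause was not tested.

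With the replicate number as a block the counts were 249 in mutant cells (190 above, 59 below), 56 in wild-type cells and 78 for the difference. The correlations of same-numbered mutant libraries ran from -0.653 to 0.614, and 6 of 24 were over 0.1. The labels do not say what the number marks, and these correlations cannot settle whether it pairs the libraries. Low vehicle counts limit the precision of Cxcl9, Nos2 and Socs1, and low counts with Pam3CSK4 and vehicle limit that of Batf2. Tubb3, Slfn2, Icosl and Cxcl10 had vehicle levels in mutant cells near those of Batf2. The sizes of their mutant departures, of their multiplied folds and of their differences between genotypes rest in part on those low counts.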
